A study of Homo sapiens with 15 samples.

Results

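The 37 genes described here encode matrix metalloproteinases (22 MMP genes), their tissue inhibitors (TIMP1 to TIMP4), 7 ADAM proteases and 4 ADAMTS proteases. They were chosen by name, and every probe that the array carries for them was read on all 15 arrays. All 37 genes had a probe (45 probes in all), out of 20503 genes and 50599 probes on the array. RNA came from SCC13, an established line of human skin squamous carcinoma cells, stably transfected either with the control plasmid pUNO (SCC13-pUNO) or with a plasmid for Toll-like receptor 4 fused to GFP, pUNO-TLR4GFP (SCC13-TLR4). TLR4 is the cell surface receptor for bacterial lipopolysaccharide (LPS). Both lines were kept in DMEM with fetal calf serum and selected with blasticidine, and the SCC13-TLR4 cells were sorted for high GFP signal. The comparison is thus between 1 control line and 1 TLR4 line. The 4 groups were untreated SCC13-pUNO (4 arrays), untreated SCC13-TLR4 (3 arrays), SCC13-pUNO with LPS (4 arrays) and SCC13-TLR4 with LPS (4 arrays), and LPS was given as ultrapure LPS at 10 μg/ml for 24 hours.

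MMPs are zinc-dependent endopeptidases that cut collagens, laminins and other matrix proteins, and most are made as inactive precursors. The membrane-type MMPs stay on the cell surface, and TIMPs bind the active site of MMPs and of some ADAMs. ADAM proteases release the outer parts of membrane proteins, ADAM10 and ADAM17 being the main sheddases of growth factors and cytokines, while ADAMTS proteases are secreted and cut proteoglycans. In squamous carcinoma these proteases are known for their part in invasion through the basement membrane, and NF-κB and AP-1, which act downstream of TLR4, are known regulators of several MMP genes. The comparisons asked whether TLR4, LPS or both changed the level of these genes.

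Levels are given as log2 intensity relative to the 75th percentile of the same array, so that a difference of 1 is a 2-fold difference and 0 is the level of the 75th percentile spot. Levels of different probes cannot be set against each other. Each gene was read from its brightest probe. The TLR4 probe was the check of the labels. It stood at 3.19, 3.04 and 3.07 in untreated SCC13-TLR4, and between 2.84 and 3.19 on the 4 arrays of SCC13-TLR4 with LPS. On 7 of the 8 SCC13-pUNO arrays it lay between -6.40 and -3.80, but the array labelled untreated SCC13-pUNO replicate 2 read 3.04, against its label. Line differences that rest on that array are therefore also given without it for MMP1, MMP2, MMP9, MMP14, TIMP1 to TIMP4, ADAM8, ADAM10, ADAM17 and ADAM19. Those of the other genes, of TLR4, of the markers and of the lists below are given only with it. LPS differences of single genes in SCC13-pUNO, means over both lines and differences in response also include that array and are given only with it. Of the keratinocyte markers (KRT5, KRT14, TP63, SFN, CDH1, DSG3, KRT6A), 6 of 7 were well above background on all 15 arrays, and 0 of 6 fibroblast markers was bright enough to be tested. Probes for the leukocyte markers PTPRC, CD14 and CSF1R, the melanocyte marker PMEL and the endothelial marker CDH5 were also well above background on all 15 arrays, which makes 3 of 5, 1 of 4 and 1 of 4 of the markers of these cell types. KRT14, a keratin of basal keratinocytes, was 0.88 above SCC13-pUNO in untreated SCC13-TLR4 and 1.68 above it with LPS, by the brightest of its 3 probes. Both were at an unadjusted p under 0.05 and neither was past the adjustment. KRT14 was the only one of the 6 tested keratinocyte markers at an unadjusted p under 0.05. The median line difference of these 6 was 0.07 untreated and 0.24 with LPS, and the lowest was -0.14 and -0.17. The part of these markers in the results below was not tested.

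Detection divided the family before any comparison was made. A probe was tested where all arrays of 1 group or more read it well above background, and 21 of the 37 genes had such a probe: 10 of 22 MMPs, 4 of 4 TIMPs, 6 of 7 ADAMs and 1 of 4 ADAMTS genes. Counted by probe, 22685 of the 50599 on the array met this rule. Of the 21 genes, 20 were well above background on all 15 arrays, and ADAM12 on 14. Among secreted MMPs the detected genes were the interstitial collagenase MMP1, the gelatinases MMP2 and MMP9, the stromelysin-like MMP11, and MMP19 and MMP28. Membrane-bound MMPs were represented by MMP14, MMP15, MMP17 and MMP25. Another 12 genes were well above background on 0 of 15 arrays, namely MMP3, MMP7, MMP8, MMP12, MMP13, MMP20, MMP26, MMP27, ADAM9, ADAMTS4, ADAMTS5 and ADAMTS9. The remaining 4 genes were read on a few arrays: MMP10 on 1 (SCC13-pUNO with LPS, replicate 3) and MMP16, MMP21 and MMP24 on 4 each. MMP16 was read on 1 array of each untreated group and on 2 of SCC13-TLR4 with LPS. MMP24 was read on 1 array of each SCC13-pUNO group and on 2 of SCC13-TLR4 with LPS. MMP21 was read on replicates 1, 2 and 3 of SCC13-TLR4 with LPS and on untreated SCC13-pUNO replicate 2. These 4 arrays had a high TLR4 reading, but MMP21 was read on 0 of the 3 arrays of untreated SCC13-TLR4. The share of all probes with such a pattern was not counted. A reading that is not well above background sets an upper bound on a level, and it does not show that the gene is silent.

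**Figure D1:**
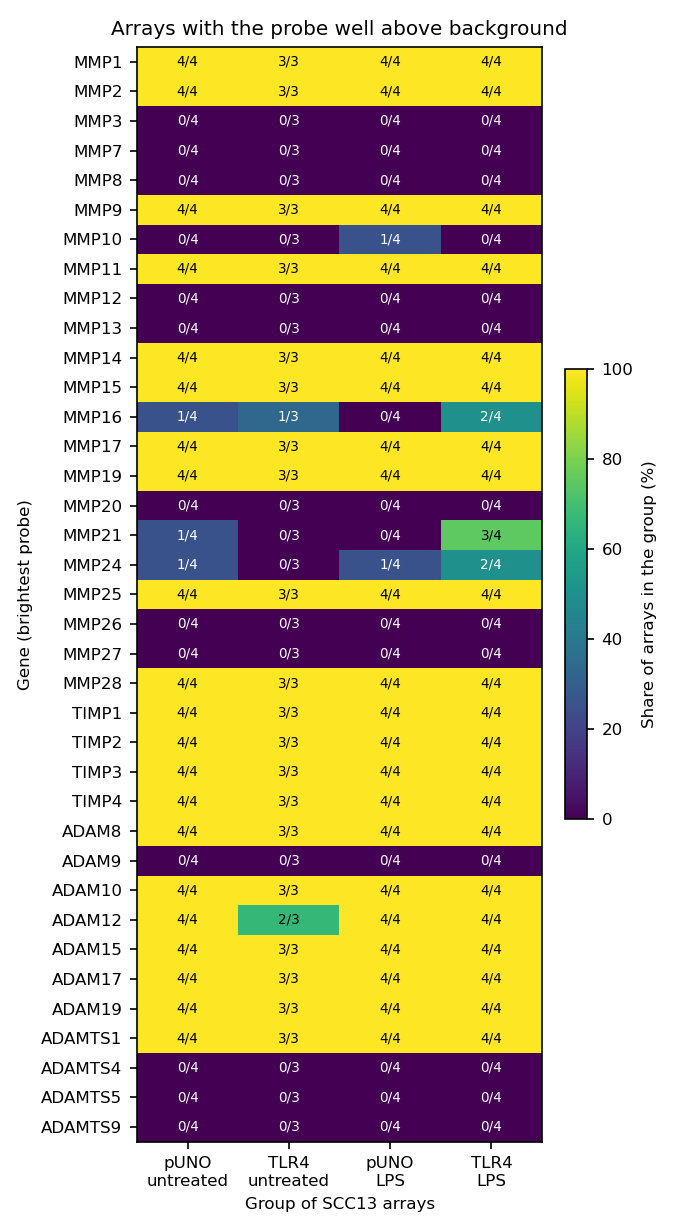
For each gene (rows, brightest probe) and group (columns), the number of arrays on which the probe was well above background over the arrays in the group, with colour giving that share in percent. Rows are either full in all groups or empty, apart from MMP10, MMP16, MMP21, MMP24 and ADAM12.

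In the RefSeq annotation, 9 of the MMP genes (MMP7, MMP20, MMP27, MMP8, MMP10, MMP1, MMP3, MMP12 and MMP13, in this order) lie side by side on chromosome 11, with only pseudogenes and non-coding genes between them. Only MMP1 of these 9 was tested, and the other 8 were read on at most 1 array. Of the 13 MMP genes elsewhere, 9 were tested. These counts are a description with no test. Promoter sequence was at hand from RefSeq (GRCh38.p14) for 20 of the 37 genes. MMP1, MMP2 and MMP9 were among the genes without a sequence, so their promoters were not searched. The 250 bases before the transcription start were searched on both strands for the AP-1 motif TGANTCA, the CRE motif TGACGTCA and the 10-letter NF-κB consensus. These motifs are shown because AP-1 and NF-κB are activated downstream of TLR4. AP-1 was found in 3 of the 20 promoters, against 6.57% of all 35116 promoters in the table. NF-κB was also found in 3 of the 20, against 9.96% of all, and CRE in 0 of 20, against 1.65%. The last 120 bases before the start are printed 5′ to 3′ with the motif in capitals, first the AP-1 promoters of MMP7 (chr11:102530748-102530867), MMP20 (chr11:102625333-102625452) and MMP10 (chr11:102780629-102780748), all on the minus strand:
MMP7: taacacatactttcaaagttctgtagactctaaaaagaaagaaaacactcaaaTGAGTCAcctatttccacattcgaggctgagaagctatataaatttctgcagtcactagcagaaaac
MMP20: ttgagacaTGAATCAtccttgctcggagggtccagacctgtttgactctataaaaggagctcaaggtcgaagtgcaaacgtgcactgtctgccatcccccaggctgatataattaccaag
MMP10: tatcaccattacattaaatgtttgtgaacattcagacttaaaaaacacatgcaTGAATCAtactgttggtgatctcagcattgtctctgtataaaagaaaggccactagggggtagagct

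The AP-1 motif began at position -67 in MMP7 and MMP10 and at -112 in MMP20, counted from the transcription start. None of these 3 genes was bright enough to be tested, in cells with or without TLR4 or LPS. The NF-κB consensus was found in ADAM17 (chr2:9555831-9555950), ADAM10 (chr15:58749708-58749827) and ADAM19 (chr5:157575776-157575895), again on the minus strand:
ADAM17: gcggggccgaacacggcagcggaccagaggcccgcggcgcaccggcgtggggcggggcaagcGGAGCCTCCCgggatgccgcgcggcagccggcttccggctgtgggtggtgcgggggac
ADAM10: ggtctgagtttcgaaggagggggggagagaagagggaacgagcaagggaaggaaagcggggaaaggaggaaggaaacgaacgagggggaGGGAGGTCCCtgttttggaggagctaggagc
ADAM19: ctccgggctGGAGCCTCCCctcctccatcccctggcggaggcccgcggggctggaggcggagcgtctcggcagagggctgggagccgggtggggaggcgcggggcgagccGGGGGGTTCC

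All 3 of these ADAM genes were well above background on all 15 arrays, and their values are given below. The NF-κB letters began at -58 in ADAM17, at -31 in ADAM10 and at -111 and -10 in ADAM19. A match of letters is not evidence that the factor binds there.

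No gene of the family differed between the lines or with LPS after adjustment over all 22685 probes tested. In limma's moderated test with Benjamini-Hochberg adjustment, 0 of 21 genes passed an adjusted p of 0.05 in each of the 7 comparisons. Over all probes, 0% passed in 6 of the comparisons and 0.022% (5 probes) in the line difference averaged over untreated and LPS. At an unadjusted p under 0.05, 1 of 21 genes was counted in untreated cells (TIMP4, against 2.5% of all probes), 1 with LPS (ADAM8, against 2.72%) and 3 in the averaged line difference (ADAM8, TIMP4 and MMP2, against 4.33%). With slide as a factor the averaged count was 5 (these 3, ADAM19 and MMP19), against 10.5% of all probes, and the untreated count was 1 (ADAM12), against 5.55%. Without the array whose TLR4 level goes against its label, the untreated count was 2 (TIMP3 and TIMP4), against 2.35% of all probes, and the averaged count was 3 (ADAM8, TIMP3 and TIMP4), against 4.44%. For LPS against untreated the counts were 0 in SCC13-pUNO (against 2.48% of all probes), 1 in SCC13-TLR4 (ADAM12, against 1.33%) and 1 in the mean of both lines (ADAM12, against 2.06%). Between the responses of the 2 lines to LPS the count was 0, against 1.32%. Groups without overlap were found for 0 of 21 genes between the lines (against 3.73% of all probes untreated and 1.29% with LPS) and for 0 with LPS in SCC13-pUNO (against 1.27%). TLR4 itself, the transgene, did not pass the adjusted threshold. Its line difference was 6.32 untreated (95% interval 2.90 to 9.75, unadjusted p = 0.00149, adjusted p = 0.999 in limma). With LPS it was 8.86 (95% interval 5.69 to 12.02, unadjusted p = 3.8e-05, adjusted p = 0.312 in limma). The SE was 1.59 untreated and 1.47 with LPS. All groups share 1 estimate of the spread, which for this probe includes the SCC13-pUNO array that read against its label. The TLR4 result therefore does not show how hard the threshold was to reach for other genes. A gene that missed the threshold is not shown to be alike in the groups, and the 95% intervals give the range of differences left. In untreated cells the interval of the line difference reached a median of 0.39 on either side of the estimate, from 0.21 for TIMP2 to 1.12 for ADAM12. In RNA from whole cultures, fewer cells that make a transcript and less transcript in each cell cannot be told apart.

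More genes of the family passed the adjustment between slides than between lines or with LPS, and so did more of all probes. The 15 arrays came from 2 slides, and the file headers gave the slide of each. Slide 1 held 3 arrays of untreated SCC13-pUNO and 1 of untreated SCC13-TLR4, slide 2 held 1 and 2 of these, and each slide held 2 arrays of each LPS group. In every group the lower replicate numbers lay on slide 1, and the cause of the difference between slides was not tested. Within groups, 11 of 21 genes differed between slides at an adjusted p under 0.05 in limma, 1 higher and 10 lower on slide 2, against 51.8% of all probes (17.1% higher and 34.7% lower). ADAM12 was the one higher, by 0.88 (95% interval 0.26 to 1.51, adjusted p = 0.0223), and TIMP1 was the furthest below, at -0.57 (95% interval -0.71 to -0.42, adjusted p = 4.2e-05). For ADAM12 the widest gap was in untreated SCC13-TLR4, at -5.57 on slide 1 (1 array, not well above background) and -3.03 on slide 2. In SCC13-TLR4 with LPS it was -2.97 and -2.39, in untreated SCC13-pUNO -3.35 and -2.71, and in SCC13-pUNO with LPS -2.71 and -2.44. The slide fit was not repeated without the array at -5.57. The count was 11 again (50.7% of all probes) without untreated SCC13-pUNO replicate 2, 10 with quantile normalization (47.6%) and 10 with normexp background correction (44.9%). TIMP1, MMP9 and MMP15 separated by slide, with every slide 1 array above every slide 2 array. For MMP9 the lowest slide 1 array, at -1.316, lay barely above the highest of slide 2, at -1.319. The share of all probes that separated by slide was not counted. In the untreated comparison, which the slides hold unequally, 15 of the 21 genes were lower and 6 higher in SCC13-TLR4, with a median of -0.14 against -0.02 over all probes. Without untreated SCC13-pUNO replicate 2, 14 were lower and 7 higher, with a median of -0.10 against -0.0065 over all probes. With slide as a factor in the fit, 11 were lower and 10 higher, and the median was -0.0029 against 0.03 over all probes. With LPS, where slides were balanced, 10 were lower and 11 higher, with a median of 0.05 against -0.01.

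**Figure D2:**
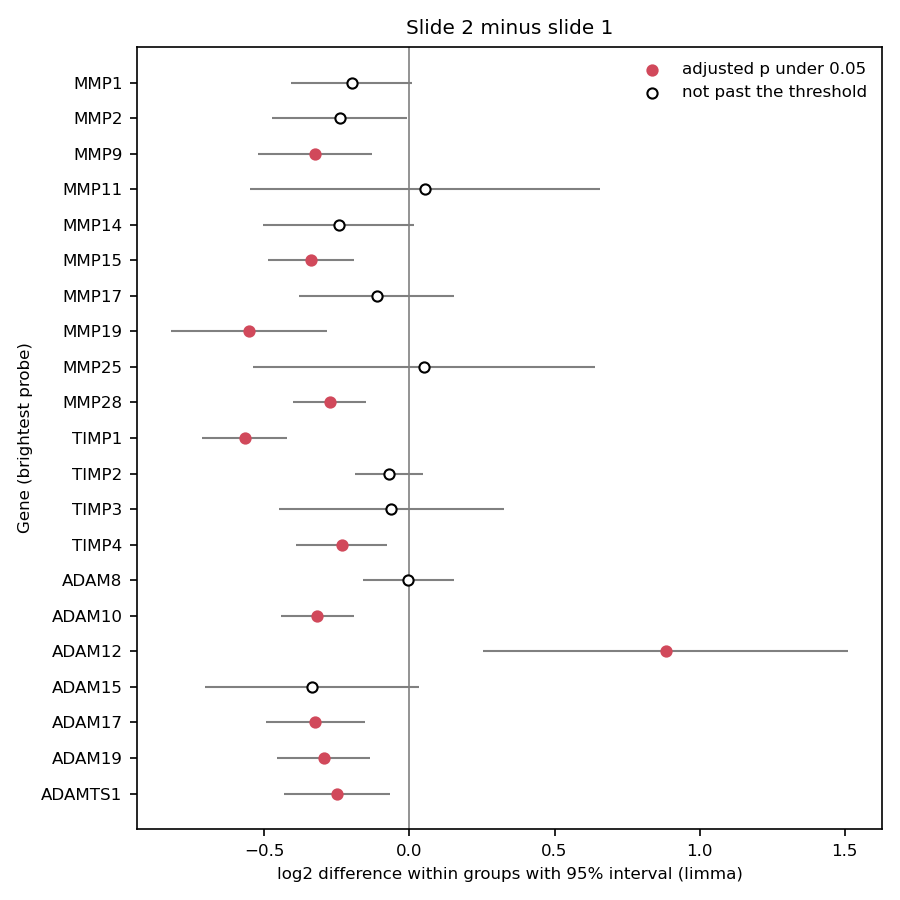
Difference between slide 2 and slide 1 within groups (x axis, log2, with 95% interval from limma) for the 21 tested genes (y axis). Filled points passed an adjusted p of 0.05: ADAM12 was higher on slide 2 and the other 10 were lower, TIMP1 and MMP19 the furthest. The ADAM12 point includes 1 slide 1 array at -5.57, which was not well above background.

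MMP1, the interstitial collagenase that opens fibrillar collagen, stood at 4.68, 5.09, 4.88 and 4.66 in untreated SCC13-pUNO and at 5.14, 4.86 and 4.78 in untreated SCC13-TLR4. With LPS it stood at 4.55, 5.001, 4.86 and 4.56 in SCC13-pUNO and at 5.05, 4.84, 4.86 and 4.58 in SCC13-TLR4. The groups overlapped throughout. The line difference was 0.10 untreated (95% interval -0.25 to 0.44) and 0.09 with LPS (95% interval -0.23 to 0.41). The MMP1 probe is printed 10 times on each array, and these spots had a median SD of 0.06 within an array, against 0.20 between arrays of a group. 

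MMP2, the gelatinase that cleaves basement membrane collagen, was even in SCC13-pUNO, at -0.63, -0.60, -0.62 and -0.65 untreated and -0.60, -0.68, -0.41 and -0.56 with LPS. In SCC13-TLR4 it stood at -0.57, -1.04 and -1.04 untreated and at -0.58, -0.52, -1.27 and -1.11 with LPS. The 4 low readings were the 4 SCC13-TLR4 arrays on slide 2, while the 3 SCC13-TLR4 arrays on slide 1 lay within the range of SCC13-pUNO. The averaged line difference was -0.28 (95% interval -0.55 to -0.02, unadjusted p = 0.0381, adjusted p = 0.996), with a two-sided exact permutation p of 0.0392. On slide 1 the lines differed by 0.05 untreated and 0.09 with LPS, and on slide 2 by -0.39 and -0.71. The line difference on slide 2 minus that on slide 1 was -0.65 (SE 0.108, unadjusted p = 8.6e-05, adjusted p = 0.246 in limma), and 0 of the 22684 probes in this fit passed the adjustment, with 8.75% at an unadjusted p under 0.05. The MMP2 difference between the lines was therefore not seen on both slides.

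MMP9, the second gelatinase and a known NF-κB target, stood at -0.83, -1.32, -1.17 and -1.32 in untreated SCC13-pUNO and at -1.12, -1.47 and -1.50 in untreated SCC13-TLR4. With LPS it stood at -0.78, -1.17, -1.36 and -1.35 in SCC13-pUNO and at -1.06, -1.26, -1.34 and -1.65 in SCC13-TLR4. The line difference was -0.20 untreated (95% interval -0.60 to 0.19) and -0.16 with LPS (95% interval -0.53 to 0.21). The MMP9 probe is also printed 10 times, and its spots had a median SD of 0.21 within an array, against 0.24 between arrays of a group. LPS minus untreated was -0.01 in SCC13-pUNO (95% interval -0.37 to 0.36) and 0.04 in SCC13-TLR4 (95% interval -0.36 to 0.43).

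MMP14, the membrane-type MMP that activates the MMP2 precursor, stood at 1.76, 1.60, 1.59 and 1.58 in untreated SCC13-pUNO and at 1.97, 1.10 and 1.59 in untreated SCC13-TLR4. Under LPS the values were 1.41, 1.55, 1.00 and 1.63 in SCC13-pUNO and 1.59, 1.91, 1.63 and 1.49 in SCC13-TLR4. The line difference was -0.08 untreated (95% interval -0.50 to 0.34) and 0.26 with LPS (95% interval -0.13 to 0.65). For the other membrane-bound MMPs, MMP15, MMP17 and MMP25, the line differences lay between -0.27 (MMP17 with LPS) and 0.28 (MMP25 untreated). MMP17 had no value on untreated SCC13-TLR4 replicate 2 and SCC13-TLR4 with LPS replicate 3, where its spot was marked as an outlier by the scanner software, and its fits rest on 13 arrays. Among the remaining secreted MMPs, MMP11, MMP19 and MMP28, the line differences lay between -0.12 and 0.22.

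**Figure D3:**
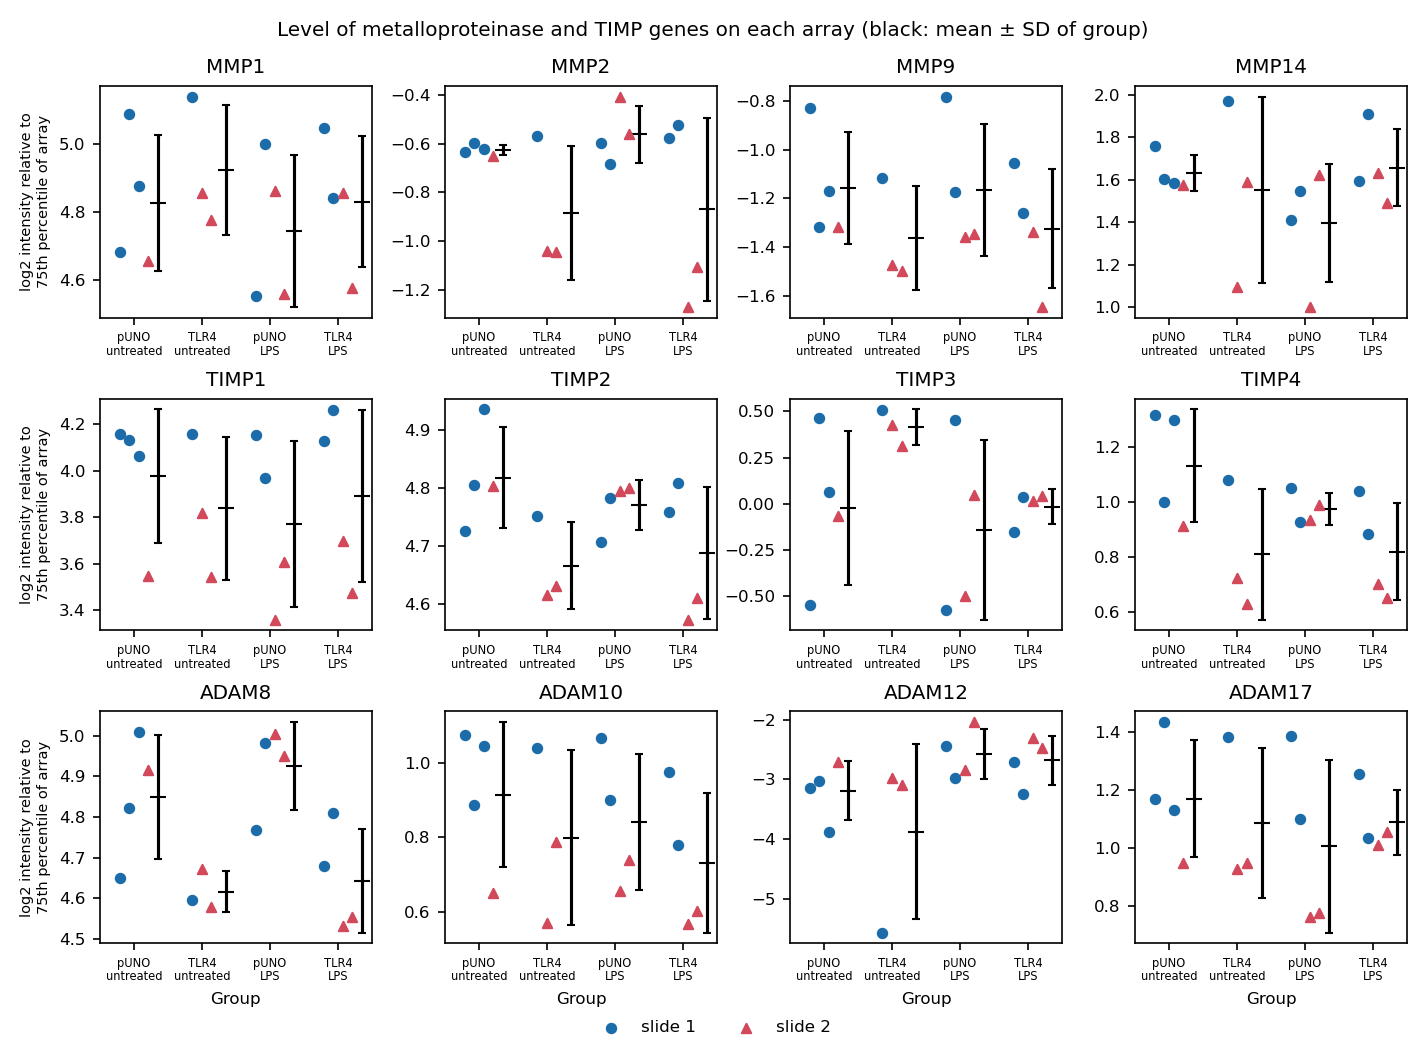
Level of 12 genes on each array (y axis, log2 intensity, 75th percentile set to 0), by group (x axis), with circles for slide 1, triangles for slide 2 and black bars for the mean ± SD of the group (n = 4, 3, 4 and 4). Slide 2 lies below slide 1 for TIMP1 in every group, and the lowest MMP2 readings are those of SCC13-TLR4 on slide 2.

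TIMP1, the secreted inhibitor of most soluble MMPs, stood at 4.16, 4.13, 4.06 and 3.55 in untreated SCC13-pUNO and at 4.16, 3.82 and 3.54 in untreated SCC13-TLR4. With LPS it stood at 4.15, 3.97, 3.36 and 3.60 in SCC13-pUNO and at 4.13, 4.26, 3.70 and 3.47 in SCC13-TLR4. The 8 arrays of slide 1 lay between 3.97 and 4.26 and the 7 of slide 2 between 3.36 and 3.82, whatever the line or treatment. On slide 1 the lines differed by 0.04 untreated and 0.14 with LPS, and on slide 2 by 0.13 and 0.10. Over both slides it was -0.14 untreated (95% interval -0.66 to 0.39) and 0.12 with LPS (95% interval -0.37 to 0.61).

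TIMP2, which also takes part with MMP14 in activating MMP2, was the steadiest gene of the family, with a pooled SD within groups of 0.08, against a median of 0.23 over the family and 0.26 over all probes tested. It stood at 4.73, 4.81, 4.94 and 4.80 in untreated SCC13-pUNO, at 4.75, 4.62 and 4.63 in untreated SCC13-TLR4, at 4.71, 4.78, 4.79 and 4.80 in SCC13-pUNO with LPS and at 4.76, 4.81, 4.57 and 4.61 in SCC13-TLR4 with LPS. The 4 lowest readings were again the SCC13-TLR4 arrays of slide 2. The averaged line difference was -0.12 (95% interval -0.26 to 0.02, unadjusted limma p = 0.0946), with a two-sided exact permutation p of 0.0241.

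TIMP3, the matrix-bound inhibitor that also blocks ADAM17, was the only gene of the 21 whose groups separated by LPS. In SCC13-TLR4 it stood at 0.51, 0.42 and 0.31 untreated and at -0.15, 0.04, 0.02 and 0.04 with LPS, without overlap. The difference was -0.43 (95% interval -0.96 to 0.10, unadjusted p = 0.106, adjusted p = 1.00 in limma). The two-sided exact permutation p was 0.0286, the smallest that 4 against 3 arrays can give. Of all probes tested, 1.79% separated in this comparison, and 1 of 21 genes here did. It was -0.57 on slide 1 (2 arrays with LPS and 1 without) and -0.34 on slide 2 (2 of each). In SCC13-pUNO the values were spread more widely, at -0.55, 0.46, 0.07 and -0.07 untreated and -0.57, 0.46, -0.50 and 0.05 with LPS, and the difference there was -0.12 (95% interval -0.61 to 0.37). The response of SCC13-TLR4 minus that of SCC13-pUNO was -0.31 (95% interval -1.03 to 0.42), so that a difference in response was not shown. This value and the SCC13-pUNO difference include untreated SCC13-pUNO replicate 2, the highest of its group at 0.46, whose TLR4 level goes against its label. In untreated cells TIMP3 was 0.44 above SCC13-pUNO in SCC13-TLR4 (unadjusted p = 0.101), and 0.60 above it (unadjusted p = 0.0297, adjusted p = 0.9997) without the array whose TLR4 level goes against its label.

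TIMP4, another secreted inhibitor of MMPs, gave the only unadjusted p under 0.05 in untreated cells with all 15 arrays and no slide in the fit. With slide as a factor its untreated limma p was not under 0.05. TIMP4 was also lower on slide 2, by a difference of -0.23 (adjusted p = 0.0164 in limma). It stood at 1.32, 1.00, 1.30 and 0.91 in untreated SCC13-pUNO, at 1.08, 0.72 and 0.63 in untreated SCC13-TLR4, at 1.05, 0.93, 0.93 and 0.99 in SCC13-pUNO with LPS and at 1.04, 0.88, 0.70 and 0.65 in SCC13-TLR4 with LPS. The untreated difference was -0.32 (95% interval -0.63 to -0.01, unadjusted p = 0.043, adjusted p = 0.999), and the two-sided exact permutation p was 0.143. With LPS it was -0.16 (95% interval -0.44 to 0.13). On slide 1 the lines differed by -0.12 untreated and -0.03 with LPS, and on slide 2 by -0.24 and -0.28. Without the array whose TLR4 level goes against its label the untreated difference was -0.37.

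ADAM8, a protease of leukocytes and of carcinoma cells, gave the smallest p among brightest probes in the 7 comparisons. It stood at 4.65, 4.82, 5.01 and 4.92 in untreated SCC13-pUNO and at 4.60, 4.67 and 4.58 in untreated SCC13-TLR4. With LPS it stood at 4.77, 4.98, 5.004 and 4.95 in SCC13-pUNO and at 4.68, 4.81, 4.53 and 4.56 in SCC13-TLR4. The lines overlapped by 1 array in each condition. The line difference was -0.23 untreated (95% interval -0.47 to 0.01) and -0.28 with LPS (95% interval -0.51 to -0.06, unadjusted p = 0.0175), with two-sided exact permutation p of 0.0857 and 0.0571. Averaged over both conditions it was -0.26 (95% interval -0.42 to -0.09, unadjusted p = 0.00496, adjusted p = 0.996), and the exact permutation p was 0.00286. Between slides ADAM8 differed by -0.0038 (95% interval -0.16 to 0.15), and by 0.14 with quantile normalization (95% interval -0.03 to 0.31). The line difference was negative on both slides, at -0.23 and -0.29 untreated and -0.13 and -0.43 with LPS. It was as large (-0.26) without the array whose TLR4 level goes against its label.

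The sheddase ADAM10 stood at 1.08, 0.89, 1.05 and 0.65 in untreated SCC13-pUNO, at 1.04, 0.57 and 0.79 in untreated SCC13-TLR4, at 1.07, 0.90, 0.66 and 0.74 in SCC13-pUNO with LPS and at 0.98, 0.78, 0.57 and 0.60 in SCC13-TLR4 with LPS. Its line difference was -0.11 both untreated (95% interval -0.45 to 0.22) and with LPS (95% interval -0.42 to 0.20). ADAM17, the TNF-α converting enzyme, stood at 1.17, 1.44, 1.13 and 0.95 in untreated SCC13-pUNO, at 1.39, 0.93 and 0.95 in untreated SCC13-TLR4, at 1.39, 1.10, 0.76 and 0.78 in SCC13-pUNO with LPS and at 1.26, 1.03, 1.01 and 1.06 in SCC13-TLR4 with LPS. Its line difference was -0.08 untreated (95% interval -0.46 to 0.29) and 0.08 with LPS (95% interval -0.26 to 0.43). Both genes were lower on slide 2 (ADAM10 by a difference of -0.32, adjusted p = 0.000898, and ADAM17 by a difference of -0.32, adjusted p = 0.00475). ADAM19, the third gene with the NF-κB letters, had line differences of 0.02 untreated (95% interval -0.33 to 0.37) and 0.21 with LPS (95% interval -0.11 to 0.53).

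Without the array whose TLR4 level goes against its label, the untreated line differences not given above were 0.18 for MMP1, -0.25 for MMP2, -0.26 for MMP9 and -0.09 for MMP14. Those of the inhibitors were -0.09 for TIMP1 and -0.15 for TIMP2, and those of the sheddases -0.12 for ADAM10, 0.0037 for ADAM17 and 0.12 for ADAM19. The averaged line difference was -0.28 for MMP2 (unadjusted p = 0.0577, adjusted p = 0.999 in limma) and -0.12 for TIMP2. ADAM17 was the only one of these 9 genes to change sign.

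**Figure D4:**
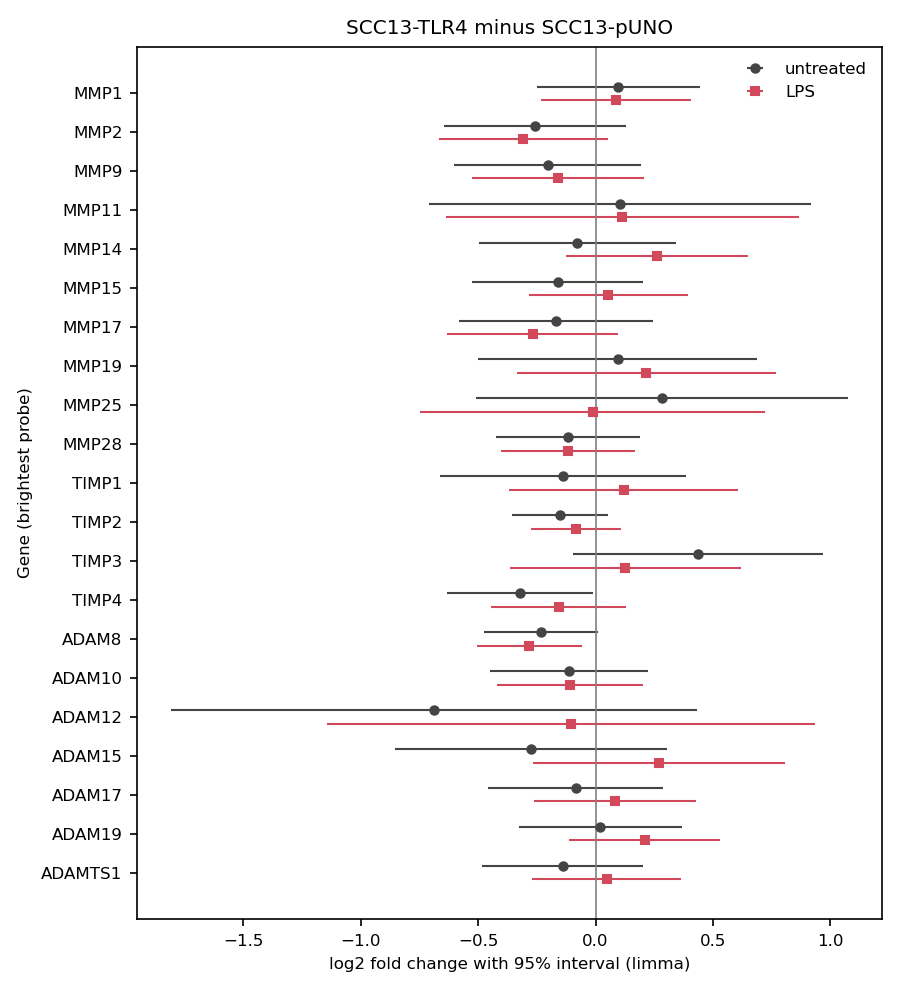
Line difference, SCC13-TLR4 minus SCC13-pUNO (x axis, log2 fold change with 95% interval from limma), for the 21 tested genes (y axis), untreated (circles) and with LPS (squares). The intervals of TIMP4 untreated and of ADAM8 with LPS leave out 0, and all others include it.

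ADAM12, a dim gene near the detection limit, had the widest spread, with a pooled SD within groups of 0.74. It stood at -3.15, -3.02, -3.88 and -2.72 in untreated SCC13-pUNO, at -5.57, -2.97 and -3.09 in untreated SCC13-TLR4, at -2.45, -2.97, -2.85 and -2.04 in SCC13-pUNO with LPS and at -2.71, -3.24, -2.31 and -2.47 in SCC13-TLR4 with LPS. LPS minus untreated was 1.19 in SCC13-TLR4 (95% interval 0.07 to 2.32, unadjusted p = 0.0383, adjusted p = 1.00), with a two-sided exact permutation p of 0.114. That value rested on untreated SCC13-TLR4 replicate 1, at -5.57, the only array on which ADAM12 was not well above background, and without it the difference was 0.35 (unadjusted p = 0.324). Averaged over both lines LPS minus untreated was 0.90 (95% interval 0.14 to 1.67, unadjusted p = 0.0238, exact permutation p = 0.0114), and 0.48 without that array. The same array turned the untreated line difference from -0.69 to 0.16 when left out.

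ADAM15 was low with both of its probes on 1 array, SCC13-pUNO with LPS replicate 4. The brightest probe read 6.22 there, against 6.86 to 7.59 on the other 14 arrays, and the second 0.78 against 2.07 to 2.89. LPS minus untreated in SCC13-pUNO was -0.46 (95% interval -0.9995 to 0.07) by the brightest probe, and -0.22 without that array. By the second probe it was -0.70 (95% interval -1.37 to -0.02, unadjusted p = 0.0441, adjusted p = 0.9996 in limma).

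ADAMTS1, the only ADAMTS gene of the family with a tested probe, is a secreted protease that cuts versican and aggrecan. Its brightest probe (A_23_P211039) stood at 0.59, 0.57, 0.54 and 0.55 in untreated SCC13-pUNO, at 0.83, 0.18 and 0.26 in untreated SCC13-TLR4, at 0.63, 0.45, 0.15 and 0.42 in SCC13-pUNO with LPS and at 0.67, 0.44, 0.28 and 0.47 in SCC13-TLR4 with LPS. The line difference with LPS was 0.05 (95% interval -0.27 to 0.37). The second, dimmer probe (A_33_P3390013) read -2.11, -2.27, -2.52 and -2.28 in SCC13-pUNO with LPS and -2.07, -1.51, -1.85 and -1.54 in SCC13-TLR4 with LPS, which did not overlap, as for 1.29% of all probes. By this probe the line difference was 0.55 (95% interval 0.21 to 0.90, unadjusted p = 0.00427, adjusted p = 0.9997, exact permutation p = 0.0286). Both probes of ADAMTS1 gave a positive line difference with LPS, and their intervals overlapped. The difference between the probes was not tested.

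**Figure D5:**
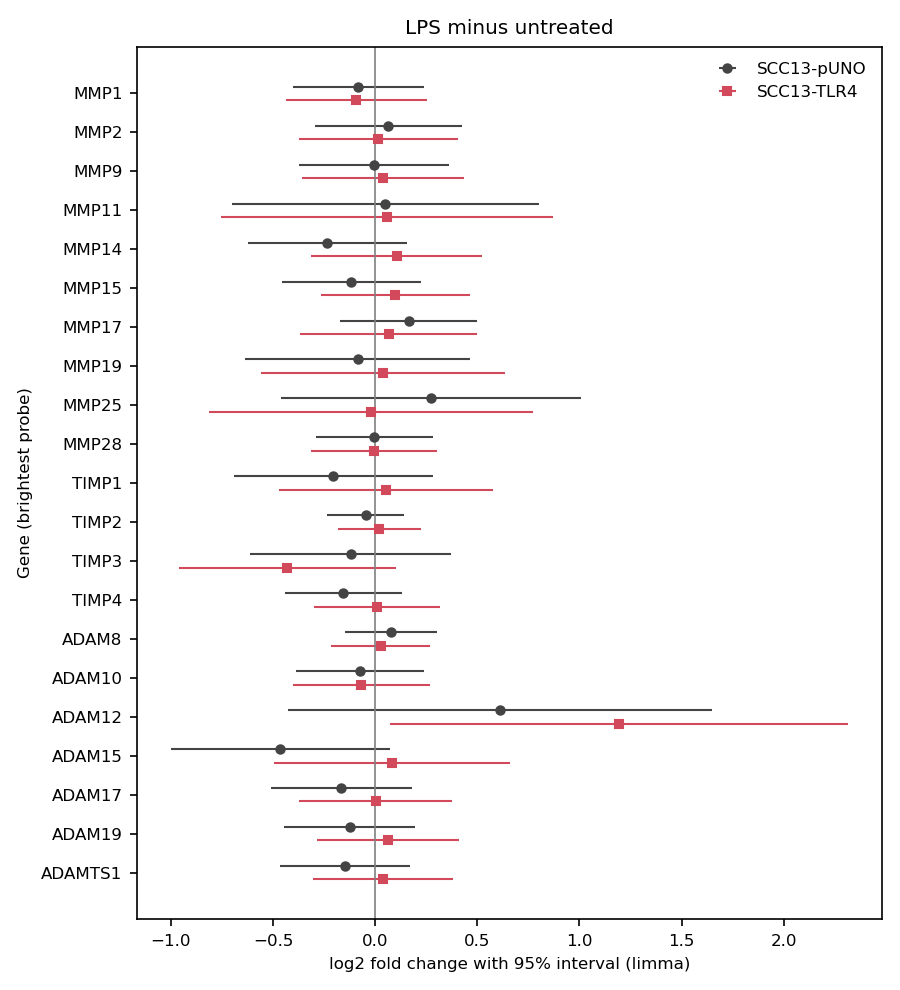
LPS minus untreated (x axis, log2 fold change with 95% interval from limma) for the 21 tested genes (y axis), in SCC13-pUNO (circles) and SCC13-TLR4 (squares). The interval of ADAM12 in SCC13-TLR4 leaves out 0, and its difference is 0.35 without untreated SCC13-TLR4 replicate 1.

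In 4 lists of genes that act with the family or belong to it, 0 genes passed the adjustment in any of the 7 comparisons. Over all probes, 2.5% had an unadjusted p under 0.05 untreated and 2.72% with LPS, beside which the counts below stand. Of the activators and regulators (among them FURIN, the urokinase genes PLAU and PLAUR, CD44 and the ADAM17 partners RHBDF1 and RHBDF2), 16 of 18 were tested and 0 had an unadjusted p under 0.05 in either line comparison. Their median line difference was -0.02 untreated and 0.03 with LPS. Of the substrates shed by ADAM10 or ADAM17, 10 of 14 were tested, and 1 had an unadjusted p under 0.05 untreated and 2 with LPS. HBEGF, an EGF receptor ligand, had an unadjusted p under 0.05 in both conditions, at 0.50 untreated and 0.46 with LPS. It was well above background on every array of both SCC13-TLR4 groups but on only 3 arrays of each SCC13-pUNO group. HBEGF thus met the rule for testing only through SCC13-TLR4, the line in which it was higher, and that favours this direction. BTC, another such ligand, had an unadjusted p under 0.05 with LPS, at 0.68. The list's medians were -0.02 and -0.0038. Of the matrix substrates, 12 of 16 were tested and 1, the basement membrane collagen COL4A1, had an unadjusted p under 0.05, at -0.43 untreated. The list's medians were -0.11 and -0.05. Of 21 other ADAM and ADAMTS genes, 6 were tested, with list medians of 0.06 and 0.09. ADAM23, which lacks protease activity, had an unadjusted p under 0.05 untreated, at 0.96. It was well above background on 8 arrays: all of untreated SCC13-TLR4, 1 of untreated SCC13-pUNO and 2 of each LPS group. ADAM23 thus met the rule for testing only through untreated SCC13-TLR4, the group in which it was higher, and that favours this direction. For LPS against untreated, 0 genes of these lists had an unadjusted p under 0.05 in either line.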

How the data were processed

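RNA was hybridised in 1 colour (Cy3) to Agilent 8x60K arrays. The authors deposited Feature Extraction (version 10.7.3.1) output, whose processed signal is an intensity per spot, already background-subtracted and detrended per the file headers. From it, log2(intensity) minus the array's 75th percentile over non-control spots was computed, outlier-marked spots were left out and spots of a probe averaged. At the 75th percentile the intensity was 192 to 420, and 47.1% to 56.2% of spots lay well above background. Precision is limited by the array number. The methods state no normalization. Probes that all arrays of 1 group or more read well above background were fitted with limma 3.58.1 (R 4.3.3), 1 mean per group, eBayes and Benjamini-Hochberg adjustment; the fit was tested on simulated data. Exact permutation tests, two-sided, shuffled arrays. Figures used matplotlib 3.10.9.

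Members, lists, named genes (a fixed set, plus those with an unadjusted p under 0.05 or groups without overlap) and tests were chosen with earlier results of these data known. The slide tests, ADAM15, MMP15 and second probes were added after values were seen. Replicates were cultures seeded alongside, so p-values measure only that spread. Of 21 same-numbered pairs of arrays, the 15 on 1 slide deviated together (r from 0.20 to 0.62) and the 6 on different slides did not (r from -0.54 to -0.19), so that the numbers were not taken to pair arrays. Alternatives are listed in the closing section. Cell type markers covered keratinocytes, fibroblasts, leukocytes, melanocytes and endothelium.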

Additional observations from a re-analysis of the deposited data

Results flagged for a closer look

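In 62 groups of 4 arrays tested over the 21 genes, 4 groups held 1 array far from the other 3, where chance gives about 1 in 20 groups, or 3.1 here. TIMP1 stood at 3.55 on untreated SCC13-pUNO replicate 4, against 4.06 to 4.16 on the others, and that array was the only one of its group on slide 2. MMP14 stood at 1.76 on untreated SCC13-pUNO replicate 1, against 1.58 to 1.60. MMP25 stood at -2.21 on untreated SCC13-pUNO replicate 3, against -2.75 to -2.67. TIMP3 stood at -0.15 on SCC13-TLR4 with LPS replicate 1, against 0.02 to 0.04. The causes were not tested.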

How the results depend on the processing

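Under all alternatives tried, 0 of the family's genes passed the adjustment in any comparison, the smallest adjusted p being 0.0573 (TIMP4, untreated lines, array weights). Over 3752 refitted differences 328 changed sign, the largest of them ADAM12 in untreated lines, at -0.69 with all arrays. The differences with an unadjusted p under 0.05 or without overlap (ADAM8 and TIMP4 between lines, MMP2 between lines averaged, TIMP3 and ADAM12 with LPS) kept their sign in all alternatives. ADAM8 averaged over conditions ranged from -0.29 to -0.19. With array weights 11 of 21 genes had an unadjusted p under 0.05 in untreated lines, against 35.8% of all probes.

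Counts of all probes past the adjustment moved as follows. In untreated lines (0) they were 11 with slide as a factor and without untreated SCC13-pUNO replicate 2, 8 with array weights, and 0 to 7 leaving out 1 array. With LPS (0) they were 22 with slide as a factor and without that array, 5 with only the 2 groups compared, and 0 to 10 leaving out 1 array. For the averaged line difference (5) they were 0 with quantile normalization, with probes above background on all 15 arrays, with outlier-marked spots kept, with the replicate block and with array weights, 2 with no filter, 9 with the mean over a gene's probes, 22 with slide as a factor, 49 with that and without untreated SCC13-pUNO replicate 2, and 0 to 23 leaving out 1 array. For LPS (0), leaving out 1 array gave 0 to 1 in SCC13-pUNO, 0 to 5 in SCC13-TLR4, 0 to 2 in the mean of both lines and 0 to 3 for the difference in response. The higher counts without 1 array came from leaving out untreated SCC13-pUNO replicate 2, untreated SCC13-TLR4 replicate 1 or 3, SCC13-pUNO with LPS replicate 2 or SCC13-TLR4 with LPS replicate 4. In the averaged line difference, leaving out any array other than the first of these and untreated SCC13-TLR4 replicate 1 or 3 gave 0. The causes were not tested. Replicate numbers only name the arrays, so the replicate block, which gave 0 in each comparison, is given only here. Slide differences were called for 11 of 21 genes, 10 with quantile normalization and 10 with normexp.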
